A study of Rattus norvegicus with 3 samples.

Results

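Histone modifying enzymes and chromatin remodellers were examined in cultured rat granulosa cells, the steroid-producing cells of the ovarian follicle. The genes were taken as those whose probe sets the platform annotation assigns to a single symbol beginning with Hdac, Sirt and a digit, Kdm, Kat and a digit, Kmt, Setd, Ezh or Smarc, or to Ep300 or Crebbp. This gave 72 genes with 134 probe sets, of 14218 genes and 31099 probe sets on the array. Of these 72 genes, 40 had 1 probe set and 32 had 2 or more. The rule uses no measured value.

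Granulosa cells were taken from Sprague-Dawley females aged 24 to 25 days that had been primed 48 h earlier with PMSG, a gonadotropin that brings follicles to the preovulatory stage. All cells were infected with an adenovirus at 50 pfu per cell for 2 h, carrying either green fluorescent protein (Ad-GFP) or nuclear factor interleukin-3 (Ad-NFIL3), so the controls were virus-infected too. The 3 groups were Ad-GFP without stimulus (the unstimulated control), Ad-GFP with FSK/PMA (the stimulated control) and the NFIL3 array, Ad-NFIL3 with the same stimulus. FSK/PMA is 10 uM forskolin plus 20 nM phorbol 12-myristate 13-acetate, added 24 h after infection for 6 h, a mix that stands in for the ovulatory gonadotropin signal. Each group was 1 Affymetrix array of RNA pooled from 3 experiments, so no difference has a replicate check or a p-value.

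Histone acetyltransferases (Kat genes, Ep300, Crebbp) place acetyl groups that open chromatin, and histone deacetylases (Hdac genes and some sirtuins) remove them. Lysine methyltransferases (Kmt, Setd, Ezh) and demethylases (Kdm) write and erase marks that can favour or repress transcription. Smarc genes encode the ATP-driven remodellers SWI/SNF and ISWI, which move nucleosomes, and several related proteins. In granulosa cells the ovulatory signal acts through cAMP and protein kinases, and CREB, a main cAMP effector, is known to recruit Crebbp and Ep300. NFIL3 is a bZIP repressor that can act with histone deacetylases, so the transcripts of these enzymes were read with and without NFIL3 overexpression.

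The deposited values are MAS5 signals, brightness values per probe set on a linear scale. Signals under 125.8, the median of all signals, were set to that floor. A gene was read from its brightest probe set and counted as measured unless both arrays compared were below the floor. Differences of at least 2-fold were counted. Median signals of the 3 arrays lay between 115.2 and 135.8. Nfil3 itself had signals of 563.5 in the unstimulated control, 1321 in the stimulated control and 5880 on the array labelled Ad-NFIL3. As a check of cell type, the granulosa genes Foxl2, Inha and Cyp11a1 had signals of 4614, 26480 and 5523 on the Ad-GFP array, and 13 of 14 granulosa markers were on the array and above the floor on at least 1 array. Some markers of other cells were above the floor on at least 1 array too. These were 6 of 12 for theca and stroma, 7 of 10 for leukocytes, 2 of 7 for endothelium, 1 of 5 for oocytes and 2 of 2 for red cells. Of all genes, 66.08% to 67.85% were above the floor on at least 1 of the 2 arrays of a comparison. Cyp17a1, Ptprc, Pecam1 and Gdf9 were below it on all 3 arrays. In pooled RNA, fewer cells of a type and less RNA per cell cannot be told apart.

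Of the 72 genes, 69 were above the floor on at least 1 array, and Hdac11, Kdm4c and Kdm4d were below it on all 3. With the FSK/PMA stimulus against the unstimulated control, the measured genes numbered 67, or 93.1%, against 66.1% of all genes. The plot of their signals shows most of them close together on the 3 arrays.

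**Figure D1:**
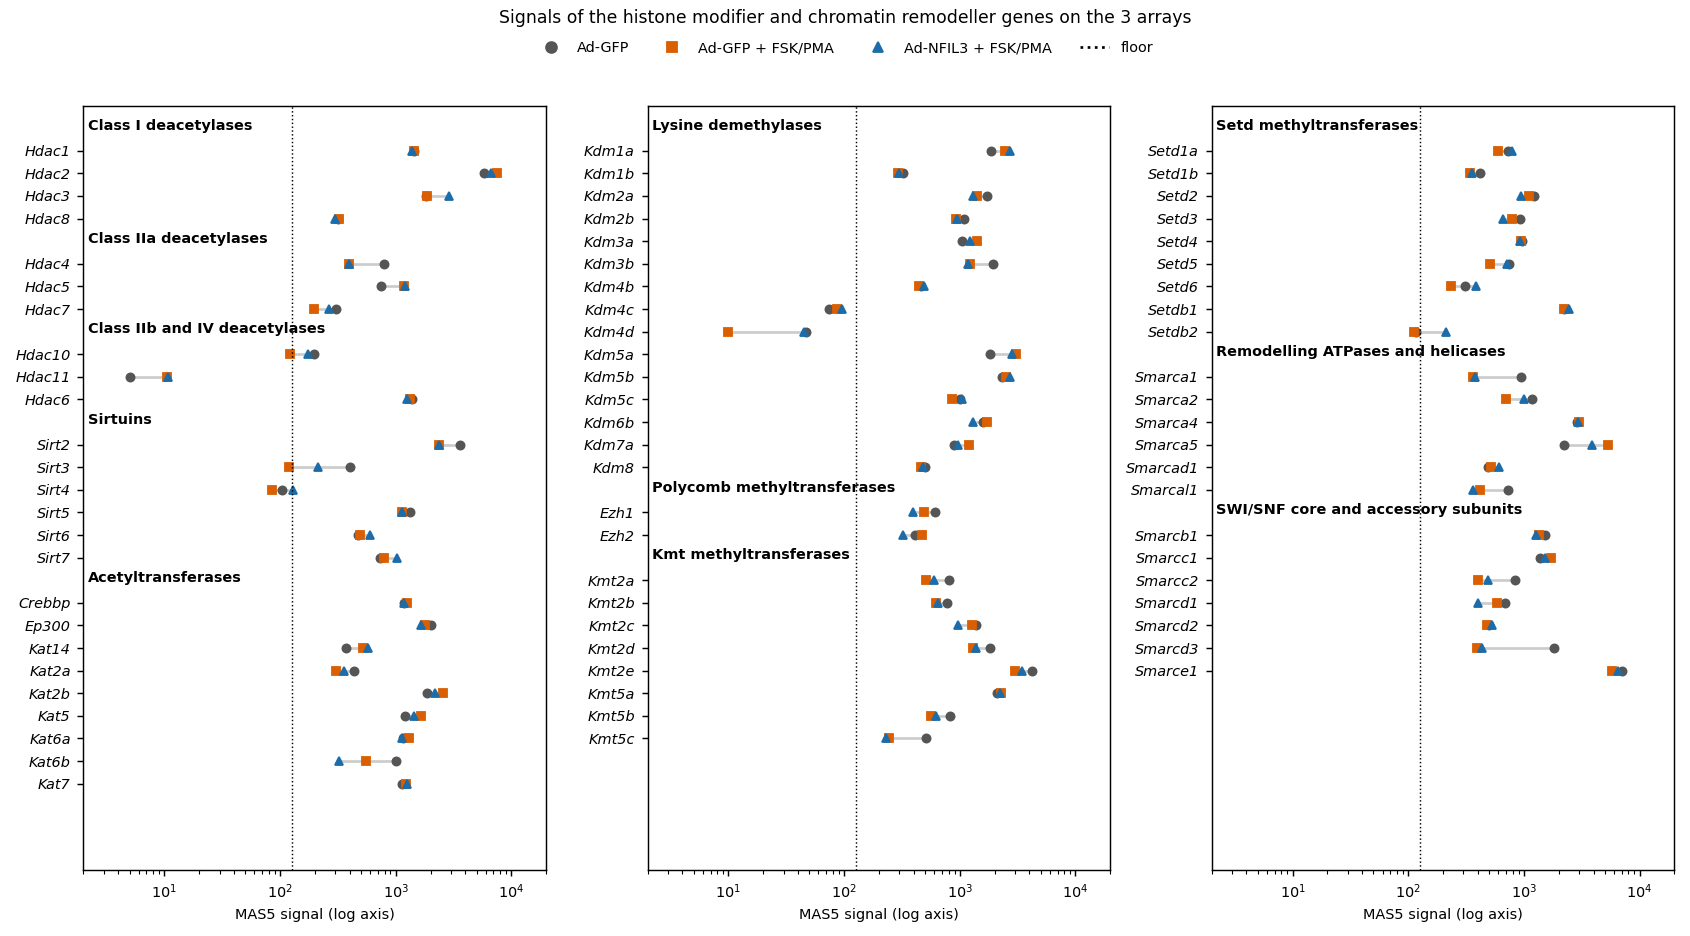
MAS5 signal (log axis) of each of the 72 genes in the unstimulated control (grey circles), the stimulated control (orange squares) and on the NFIL3 array (blue triangles), 1 array each, grouped by role; the dotted line is the floor of 125.8. Most genes have 3 points close together, while the controls stand at 1837 and 389.5 for Smarcd3 and at 2207 and 5356 for Smarca5.

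Setting the stimulated against the unstimulated control asks how the ovulatory stimulus bears on these transcripts. With the stimulus, 1 of 67 measured genes was at least 2-fold higher, the ISWI ATPase gene Smarca5, where 7.43% of all measured genes were. At least 2-fold lower were 6 of 67, or 8.96%, where 11.4% of all measured genes were: Smarcd3, Sirt3, Smarca1, Kmt5c, Smarcc2 and Hdac4. The share lower was thus near the background of the array, and the share higher, 1.49%, below it. The median log2 difference was -0.14, beside -0.10 for all 9395 measured genes, and 50 of 67 members lay within 1.5-fold (74.6%, against 61.0% of all). At 1.5-fold, 3 members were higher, where 14.9% of all genes were, and 14 lower, where 24.0% were. With arrays scaled to their medians the median of all genes moved from -0.10 to 0.03, and 856 genes were higher and 852 lower in place of 698 and 1072. With that scaling, quantile or cyclic loess normalisation, Smarca5 remained the 1 gene higher, and the lower genes were 3, Sirt3, Smarca1 and Smarcd3.

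**Figure D2:**
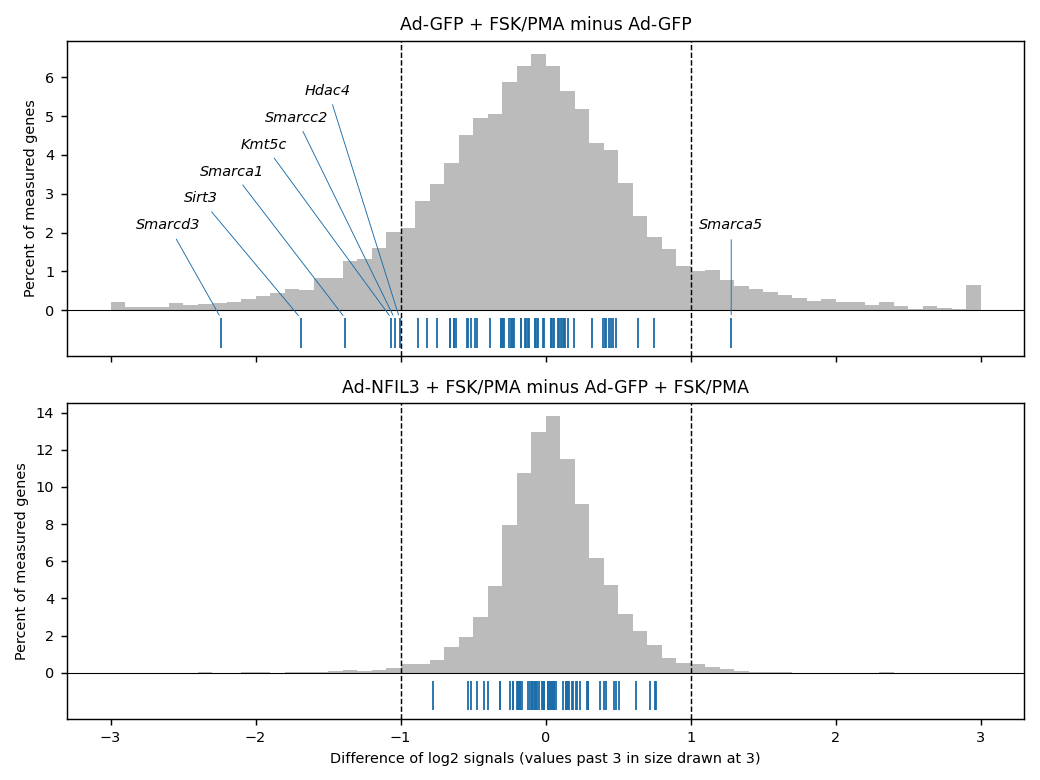
Histograms of the log2 difference of all measured genes (grey, percent of genes per 0.1) with each measured member as a blue tick below, for the stimulated against the unstimulated control (top) and the NFIL3 array against the stimulated control (bottom); dashed lines mark 2-fold. Named ticks in the top panel are the 7 members past 2-fold, and no tick passes 2-fold in the bottom panel.

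Smarca5 and Smarca1 encode SNF2H and SNF2L, the alternative ATPases of the ISWI remodellers, which space nucleosomes, and they differed in opposite directions. Smarca5 had signals of 2207 with Ad-GFP and 5356 with FSK/PMA, 2.43-fold higher. Its dimmer probe sets went from 1203 to 2156 and from 866.6 to 1228, 1.79-fold and 1.42-fold. All 3 probe sets thus agreed in direction, though only the brightest passed 2-fold, and their mean did not. Smarca1, which is known to act on the Star gene in granulosa cells, had signals of 939.4 and 360.5, 2.61-fold lower, in its only probe set. Under each scaling the directions of both genes stayed the same. On the Ad-NFIL3 array Smarca5 was at 3861 and Smarca1 at 374.8.

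The SWI/SNF ATPases Smarca4 (BRG1) and Smarca2 (BRM), which replace each other in the complex, had different values. Smarca4 had signals of 2879 and 2993, a log2 difference of 0.06. Smarca2 had signals of 1182 and 703.2, 1.68-fold lower. Smarcal1, which encodes an annealing helicase, was 1.76-fold lower, from 727.4 to 413.4.

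Among the SWI/SNF subunits, Smarcd3, which encodes BAF60C, had the lowest value of all members. Its signals were 1837 with Ad-GFP and 389.5 with FSK/PMA, 4.72-fold lower, in 1 probe set. Its paralogs Smarcd1 and Smarcd2, which take the same place in the complex, had log2 differences of -0.24 and -0.07. A similar pattern held for the scaffold pair: Smarcc2 had signals of 833.3 and 404.7, 2.06-fold lower, while Smarcc1 had 1375 and 1718, 1.25-fold higher. A second Smarcc2 probe set went from 603.4 to 447.2, 1.35-fold lower, and the other 2 were below the floor. Smarcb1, a core subunit, differed by -0.17, and Smarce1 by -0.30 in its brightest probe set and by 0.11 and 0.45 in the dimmer ones. Of these subunits 6 of 7 were below 0, and 5 of 7 with each of the other scalings, beside 5325 of all 9395 measured genes, so the count is not set apart from the background.

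**Figure D3:**
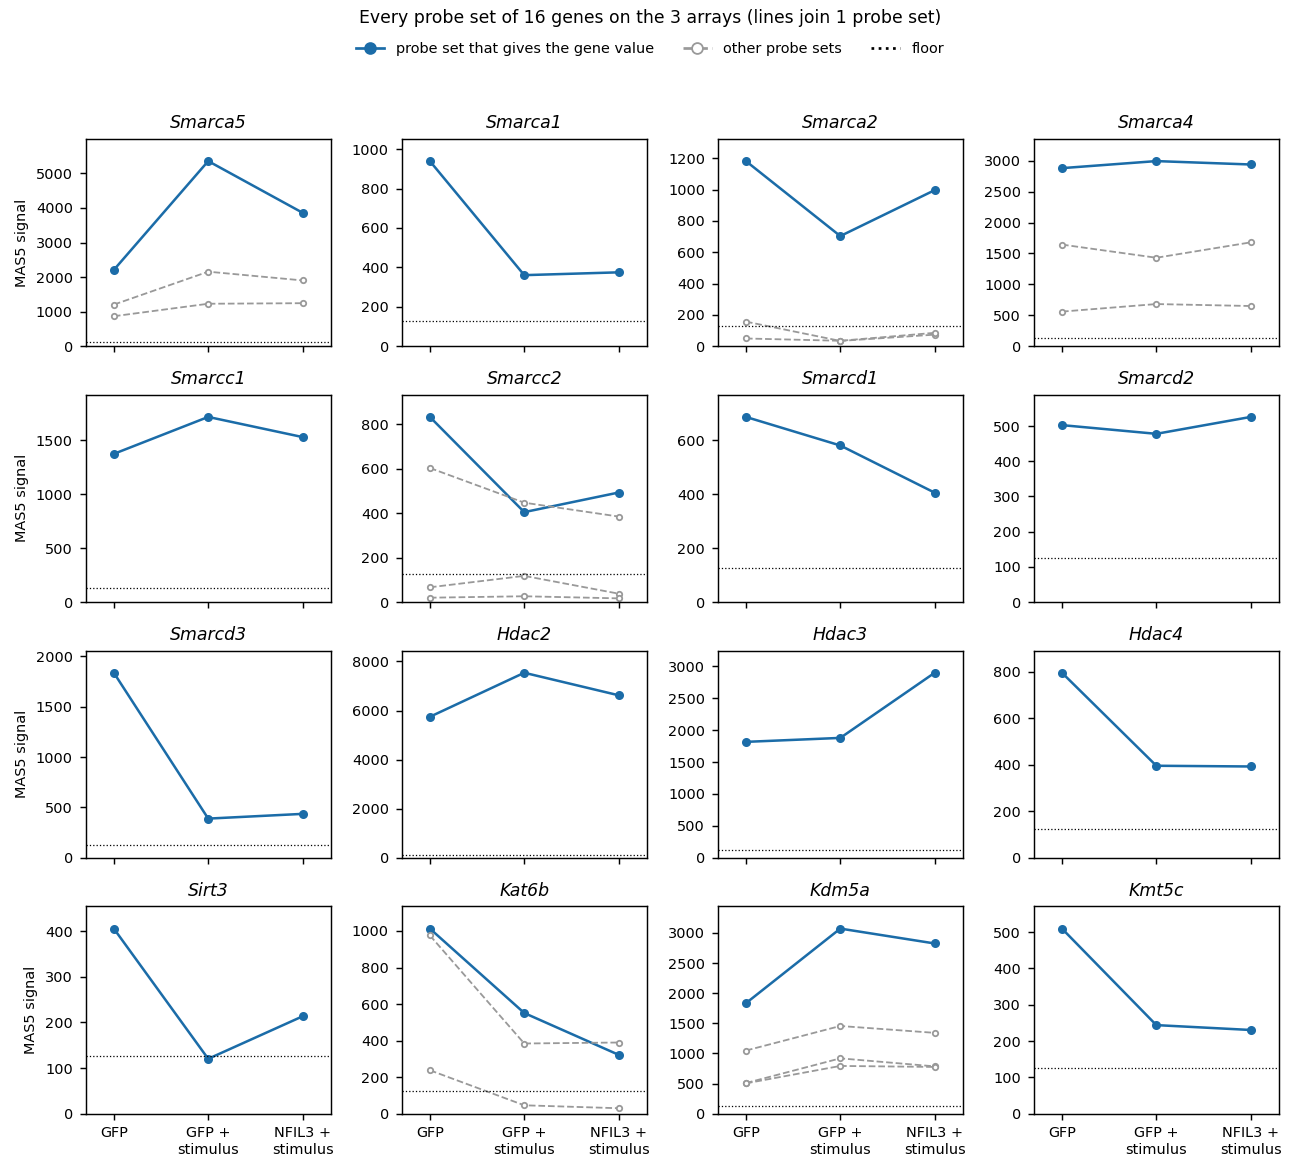
MAS5 signal of every probe set of 16 genes in the unstimulated control, the stimulated control and on the NFIL3 array, with lines joining 1 probe set; the solid blue line is the probe set that gives the gene its value and the dotted line the floor. All 3 probe sets of Smarca5 and all 4 of Kdm5a are higher in the stimulated than in the unstimulated control, by unequal folds, and 2 of Kat6b cross, at 551.0 and 384.1 in the stimulated control and at 322.2 and 389.5 on the NFIL3 array.

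Class I deacetylases, which include the catalytic subunits of the nuclear corepressor complexes, were all within 1.5-fold with the stimulus. Hdac2 had signals of 5745 with Ad-GFP and 7539 with FSK/PMA, a log2 difference of 0.39. Hdac1, its partner in the Sin3, NuRD and CoREST complexes, had signals of 1438 and 1426. Hdac3, the enzyme of the NCoR and SMRT complexes, had 1816 and 1878, and Hdac8 had 314.8 and 322.4.

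Class IIa deacetylases, which shuttle between nucleus and cytoplasm under control of protein kinases, differed in both directions. Hdac4 had signals of 795.3 and 395.7, 2.01-fold lower, which lies at the limit of the count. Hdac7 was 1.55-fold lower, from 306.6 to 197.9. Hdac5 was 1.56-fold higher, from 752.3 to 1170. Hdac6, a tubulin deacetylase of class IIb, differed by -0.06.

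Of the sirtuins, NAD-dependent deacylases, 6 were represented and Sirt1 was not among the genes analysed. Sirt3, the main mitochondrial deacetylase, had a signal of 405.5 with Ad-GFP and 120.2 with FSK/PMA, below the floor, and was at least 3.22-fold lower. Sirt2, which is mostly cytoplasmic, was 1.53-fold lower, from 3594 to 2344. Sirt5, Sirt6 and Sirt7 were within 1.2-fold, and Sirt4 was below the floor on both arrays.

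Acetyltransferases had 0 of 9 genes past 2-fold, where 7.43% of all genes were higher and 11.4% lower. Above 0 were 6 of 9 under all 4 scalings and 5 of 9 with the mean of all probe sets, beside 4070 of all 9395 measured genes. Ep300 had signals of 2002 and 1782, and Crebbp had 1174 and 1250 in its brightest probe set. Dimmer probe sets of Crebbp were 1.68-fold and 1.69-fold lower, so its probe sets disagreed. Kat14, a subunit of the ATAC complex, Kat2b, also called PCAF, and Kat5, also called TIP60, had log2 differences of 0.48, 0.46 and 0.45. Kat6b, the MORF acetyltransferase, was lower in all 3 probe sets. Its signals went from 1013 to 551.0 in the brightest, 1.84-fold lower, and from 975.6 to 384.1 in the next, 2.54-fold lower.

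Lysine demethylases had 0 of 13 measured genes past 2-fold, where 7.43% of all genes were higher and 11.4% lower. Kdm5a, which removes methyl groups from a histone H3 mark of active promoters, was 1.68-fold higher, from 1834 to 3073. Its other probe sets were 1.39-fold, 1.57-fold and 1.81-fold higher, so all 4 agreed. Kdm1a, the CoREST demethylase LSD1, had signals of 1843 and 2441, a log2 difference of 0.41. Kdm6b, which erases the Polycomb mark, had 1578 and 1733. Kdm3b was 1.58-fold lower, from 1932 to 1221, whereas its paralog Kdm3a was 1.33-fold higher, from 1052 to 1400.

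Methyltransferases lay mostly below 0, as did 5325 of all 9395 measured genes. All 8 measured Setd genes were below 0, with a median of -0.26, and 0 passed 1.5-fold. With median scaling 6 of 8 were below 0, with quantile normalisation 8 and with cyclic loess 7. Of 8 Kmt genes 7 were below 0, with a median of -0.48, and 6 were so with median scaling. With the mean of all probe sets the medians were -0.13 for Setd and -0.23 for Kmt genes. Kmt5c, which adds methyl groups to histone H4 in silent chromatin, was the 1 Kmt gene past 2-fold, with signals of 509.5 and 243.8, 2.09-fold lower. Kmt2e, of the MLL family, had 5 probe sets, all lower, by 1.38-fold to 2.24-fold. Its brightest went from 4184 to 3017. Ezh2 and Ezh1, the alternative catalytic subunits of Polycomb repressive complex 2, had log2 differences of 0.20 and -0.31. A second Ezh2 probe set differed by 0.31.

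Probe sets of the same gene give a view of technical spread. Over genes with 2 measured probe sets the robust SD of a single difference was 0.36 for the stimulus and 0.24 for NFIL3. Of 25 members with 2 or more measured probe sets for the stimulus, 15 had all of them in the same direction (60.0%, against 70.9% of all such genes). For NFIL3 11 of 24 members did so (45.8%, against 56.6% of all such genes), so the sign of a small difference there often depends on the probe set. The differences of Smarcd3, Sirt3 and Smarca1 with the stimulus, each from 1 probe set, were more than 3 times the spread, as was that of the brightest Smarca5 probe set but not those of its other 2. Spread between cultures, labelling reactions or arrays is not part of it. These genes were also named for the size of their differences, so the ratio is a description and not a test.

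Upstream sequences are shown for Smarca1, Hdac4 and Kmt5c, each past 2-fold lower with the stimulus and each with a single annotated start. Each holds TGACG, a half-site of the cAMP response element. They run 250 bases up to the RefSeq start (GRCr8), 5′ to 3′ on the gene's strand, with TGACG in capitals, which in these 3 lies on the gene's strand.
Smarca1, chrX:131944283-131944532, minus strand: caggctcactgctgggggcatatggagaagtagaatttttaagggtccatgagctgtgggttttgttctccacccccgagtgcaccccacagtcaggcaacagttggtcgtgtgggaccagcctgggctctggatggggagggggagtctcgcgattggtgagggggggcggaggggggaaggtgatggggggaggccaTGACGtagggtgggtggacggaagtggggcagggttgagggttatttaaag
Hdac4, chr9:100197638-100197887, minus strand: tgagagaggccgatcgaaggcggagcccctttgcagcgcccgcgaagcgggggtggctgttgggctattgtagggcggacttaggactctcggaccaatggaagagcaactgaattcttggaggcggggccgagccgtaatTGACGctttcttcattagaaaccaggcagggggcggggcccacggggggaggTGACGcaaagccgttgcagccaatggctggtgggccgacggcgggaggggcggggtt
Kmt5c, chr1:78135932-78136181, minus strand: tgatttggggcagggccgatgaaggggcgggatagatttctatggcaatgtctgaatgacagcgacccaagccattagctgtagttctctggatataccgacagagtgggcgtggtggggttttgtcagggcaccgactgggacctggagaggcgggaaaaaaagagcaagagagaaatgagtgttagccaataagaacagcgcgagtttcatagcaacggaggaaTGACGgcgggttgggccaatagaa
Windows from 250 bases before to 50 after the start were found for 61 of the 72 genes, 85 windows in all, with both strands searched. TGACG, a motif added after the data were seen and part of the full element, was in 37.6% of these windows and in 21.2% of all 33469 windows. It was in windows of 26 of the 61 genes. Among these were Smarca5, the 1 member past 2-fold higher with the stimulus, Hdac5, also higher, and Hdac1 and Hdac8, within 1.5-fold. Sirt3, past 2-fold lower, was not among them. In their 250 upstream bases, windows of the members had a median GC content of 61.6%, against 51.2% for all. The median number of CG dinucleotides there was 18, against 5 for all, and TGACG itself holds a CG. The full cAMP response element TGACGTCA was in 0 of 85 windows and in 1.83% of all.

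The NFIL3 site was searched in 2 forms, TTACGTAA, found in 0 of 85 windows and in 0.120% of all, and TTATGTAA, found in 1 of 85 (1.18%) and in 0.893% of all. The AP-1 site TGACTCA was in 2 of 85 windows (2.35%) and in 4.63% of all. The 3 windows with a match are shown by the 30 bases around it, with the match in capitals.
Ep300, NFIL3 form, chr7:114987861-114987890, plus strand: aggggggaccaTTACATAAccccgcgcccc
Kdm3a, AP-1 site, chr4:105233221-105233250, minus strand: gccgtcgcgggTGACTCAgggaggcgggag
Smarcb1, AP-1 site, chr20:12740779-12740808, plus strand: aagccaccgccTGAGTCAggacctcagtgg
Ep300, Kdm3a and Smarcb1 were all within 1.5-fold in both comparisons. A match describes letters in a window and not binding.

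Setting the NFIL3 array against the stimulated control asks which of these transcripts differ when NFIL3 is overexpressed. The stimulated control enters this comparison and the previous one, so their values are not independent. None was past 2-fold: 0 of 69 measured genes were at least 2-fold higher, where 1.34% of all measured genes were, and 0 of 69 at least 2-fold lower, where 0.958% were. Shares this small in the background leave about 1 gene or fewer in a set of this size, so a count of 0 is near the background. The median log2 difference was 0.03, as for all genes, and 64 of 69 members were within 1.5-fold (92.8%, against 88.9% of all). At 1.5-fold, 4 members were higher, where 6.81% of all genes were, and 1 was lower, where 4.25% were. Median scaling moved the median of all genes from 0.03 to -0.20 and turned 126 genes higher and 90 lower into 48 and 190, so signs of small differences depend on the scaling here.

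Among the deacetylases, Hdac3 had signals of 1816 in the unstimulated control, 1878 in the stimulated control and 2898 on the NFIL3 array, which stood above both others, 1.54-fold over the stimulated control. The log2 difference of 0.63 was 0.39 to 0.65 over the settings that measured it, and Hdac3 has 1 probe set. Hdac2 had a signal of 6622 on the Ad-NFIL3 array, between its values on the other arrays, a log2 difference of -0.19. Hdac1 and Hdac8 differed by -0.06 and -0.10, and a second Hdac1 probe set by 0.18. Hdac4 and Hdac5 had signals of 392.6 and 1192, each within 0.03 of its stimulated control on the log2 scale. Hdac7 differed by 0.42, and Hdac10 by at least 0.48, since its stimulated control of 121.1 is below the floor.

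Sirt3 had a signal of 213.3 with Ad-NFIL3, against 120.2 without, at least 1.70-fold higher since the latter is below the floor. It thus lay between the stimulated and the unstimulated Ad-GFP arrays. Setdb2 was below the floor on both Ad-GFP arrays, at 117.6 and 111.9, and reached 212.5 with Ad-NFIL3, at least 1.69-fold higher. Setd6, which methylates an NF-kB subunit, had signals of 308.7, 236.1 and 388.3 on the 3 arrays in the order above, 1.65-fold higher with NFIL3. These 3 genes have a single probe set each, and all their signals are under 500.

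Kat6b was the lowest member with NFIL3, with signals of 551.0 and 322.2, 1.71-fold lower. A second probe set of similar brightness had 384.1 and 389.5, a log2 difference of 0.02, so the probe sets disagreed. Against unstimulated Ad-GFP, these 2 probe sets of Kat6b were both lower on the Ad-NFIL3 array, the first 3.15-fold and the second from 975.6 to 389.5. Ezh2 was 1.45-fold lower, from 467.3 to 322.4, and its second probe set differed by -0.22. Ezh1 was 1.25-fold lower, from 491.9 to 394.7. Smarcd1 was 1.43-fold lower, from 579.8 to 405.0. Kdm6b was 1.34-fold lower, from 1733 to 1289.

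Among the remodellers, Smarca5 was 1.39-fold lower with NFIL3 in its brightest probe set, from 5356 to 3861, and its dimmer probe sets differed by -0.18 and 0.02. Smarca2 was 1.42-fold higher, from 703.2 to 996.5, which placed it between the Ad-GFP arrays. Smarca4, Smarcb1 and Smarca1 differed by -0.03, -0.07 and 0.06. Smarcd3 and Smarcc2 had 436.4 and 492.9, differences of 0.16 and 0.28 from the stimulated control, while the second Smarcc2 probe set differed by -0.22. Ep300 and Crebbp had 1650 and 1186, differences of -0.11 and -0.08. Kdm1a, Kdm5a, Kat2b, Kat14, Kmt2e and Smarce1 differed by 0.16, -0.12, -0.22, 0.15, 0.18 and 0.19.

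Set against unstimulated Ad-GFP, which is the same control array as above, the Ad-NFIL3 array with FSK/PMA had 0 of 69 members at least 2-fold higher, where 6.52% of all genes were, and 6 at least 2-fold lower, where 9.05% were. These were Smarcd3, Kat6b, Smarca1, Kmt5c, Hdac4 and Smarcal1. Smarcd3 was 4.21-fold lower, Smarca1 2.51-fold lower, Kmt5c 2.21-fold lower, Hdac4 2.03-fold lower and Smarcal1 2.02-fold lower. At 1.5-fold, 6 members were higher, where 14.6% of all genes were, and 12 lower, where 20.1% were. Smarca5, at 3861 against 2207, was 1.75-fold higher.

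Partners of these enzymes were read from 10 lists of 221 genes, 190 of them on the array. With FSK/PMA, 9 of 171 measured partners were at least 2-fold higher and 12 at least 2-fold lower, with a median of -0.08. These are 5.26% and 7.02%, beside the 7.43% and 11.4% of all genes. With NFIL3, 0 of 166 were higher and 1, Ring1, was lower (0.602%), with a median of -0.05, beside 1.34% and 0.958% of all genes.

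Partners within the deacetylase corepressor complexes were at least 2-fold lower in 2 of 22 cases with FSK/PMA. That is 9.09%, beside 11.4% of all genes, and 0 were at least 2-fold higher. Rcor2, a CoREST subunit, was at least 3.94-fold lower and Mta3, a NuRD subunit, 2.35-fold lower. Chd3 and Gps2 were 1.99-fold and 1.89-fold lower. With NFIL3, 0 of 21 passed 2-fold, with a median of -0.04 and 13 of 21 below 0. Tbl1xr1 and Tbl1x, subunits of the Hdac3 complex, were the highest of the list, at 0.64 and 0.49 on the log2 scale. Their signals on the Ad-NFIL3 array, 1094 and 3617, were below those with unstimulated Ad-GFP, 1212 and 3778. Ncor1, of the same complex, differed by -0.05.

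Polycomb partners had 2 of 22 at least 2-fold higher and 1 lower with FSK/PMA. These are 9.09% and 4.5%, beside 7.43% and 11.4% of all genes. Jarid2, which guides Polycomb complexes to DNA, had signals of 1576 and 4415, 2.80-fold higher, and Pcgf5 was 2.01-fold higher. Phc1 had signals of 1826 and 574.9, 3.18-fold lower, and Phf1 was 1.98-fold lower. Ring1, a ubiquitin ligase subunit, had signals of 491.7, 273.4 and 130.8 on the Ad-GFP, FSK/PMA and Ad-NFIL3 arrays, 2.09-fold lower with NFIL3.

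SWI/SNF subunits without a Smarc symbol had 4 of 17 at least 2-fold lower and 0 higher with FSK/PMA. The 4 are 23.5%, where 11.4% of all genes were lower and 7.43% higher. The list median was -0.39, beside -0.10 for all genes. Dpf3 and Bcl11b were at least 3.27-fold and 3.21-fold lower, Bcl11a 2.90-fold lower and Bcl7a 2.34-fold lower. All 4 have signals under 500 on every array. With NFIL3, 0 of 14 passed 2-fold.

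Other remodelling genes had 3 of 22 at least 2-fold higher and 1 lower with FSK/PMA. These are 13.6% and 4.5%, beside 7.43% and 11.4% of all genes. Baz1a, whose product pairs with SNF2H in the ACF complex, had signals of 811.5 and 2170, 2.67-fold higher. Chd7 was at least 2.99-fold and Chd9 2.17-fold higher, and Ercc6 was 2.21-fold lower. Bptf, the partner of SNF2L in the NURF complex, was 1.64-fold lower, from 3348 to 2047, and was named after its values were seen. Baz1b, Baz2a, Baz2b and Rsf1, of the same list, did not follow Baz1a, with log2 differences of 0.19, -0.66, -0.19 and 0.07. Of the 22 genes, 10 were above 0 and 12 below. With NFIL3, 0 of 22 passed 2-fold.

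**Figure D4:**
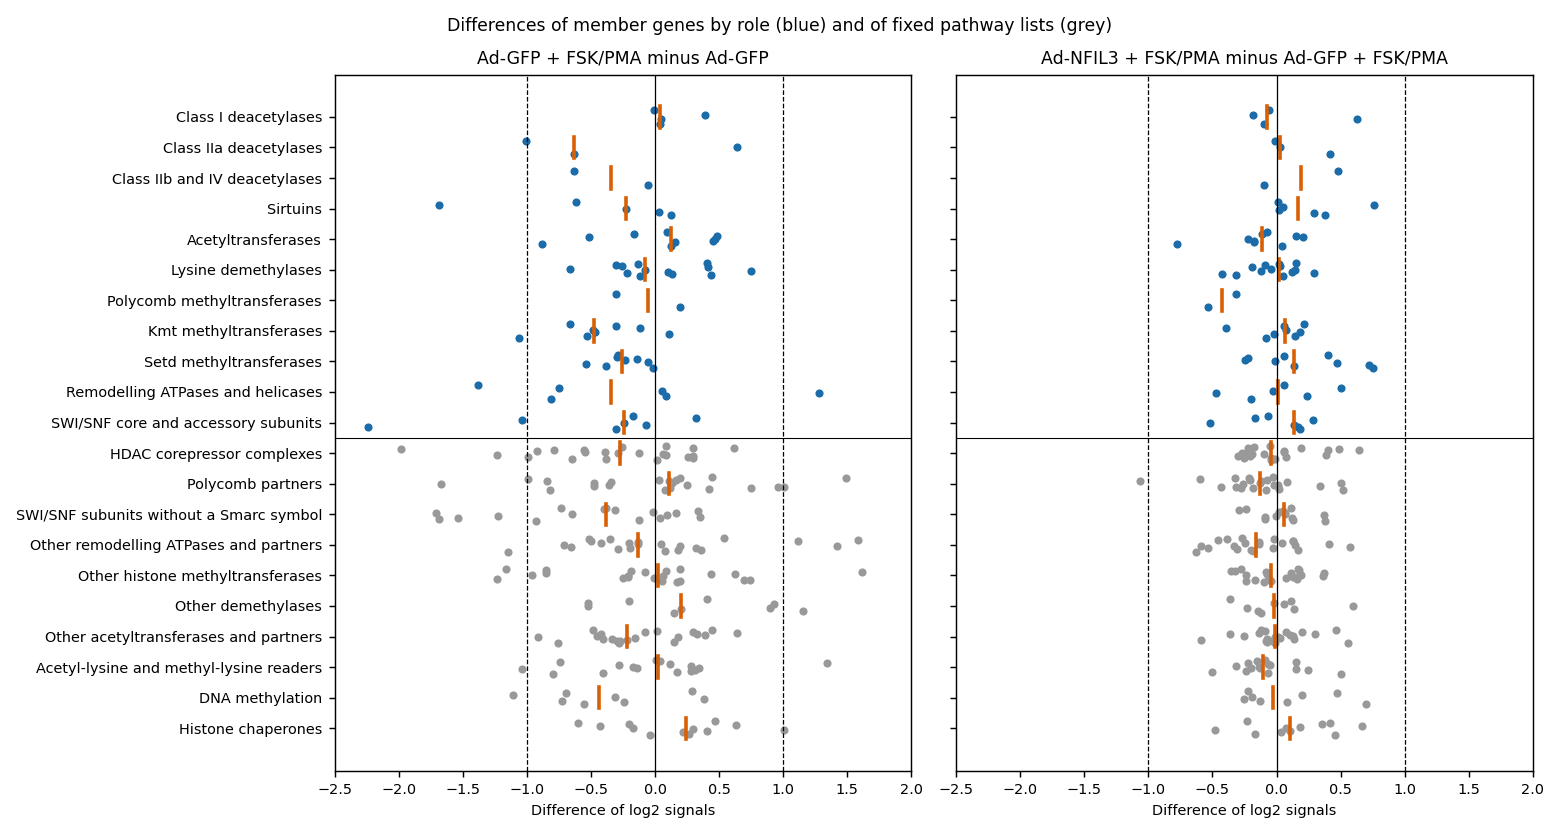
Log2 differences of measured genes for the stimulated against the unstimulated control (left) and the NFIL3 array against the stimulated control (right); blue points are members by role, grey points the genes of the 10 partner lists, orange bars the medians and dashed lines 2-fold. Points spread widely on the left, from Smarcd3 at -2.24 to Dot1l at 1.62, and on the right Ring1 alone passes 2-fold, at -1.06.

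Other histone methyltransferases had 1 of 22 at least 2-fold higher and 2 lower with FSK/PMA. These are 4.5% and 9.09%, beside 7.43% and 11.4% of all genes. The same shares of all genes are the background for the small lists that follow. Dot1l, which methylates histone H3 in transcribed genes, had signals of 576.8 and 1770, 3.07-fold higher. Prmt2 was 2.36-fold lower and Ehmt2, the G9a enzyme, 2.24-fold lower. Of the other acetyltransferases and partners, 0 of 21 passed 2-fold, with Jade1 1.89-fold lower. The readers had Brd8 2.54-fold higher and Zmynd8 2.05-fold lower, of 16. Of 8 DNA methylation genes Tet1 was 2.15-fold lower, and of 12 histone chaperones Nasp was 2.01-fold higher. Among other demethylases 1 of 9 was higher, listed as Uty, by 2.22-fold. Uty is Y-linked and the animals were female, and whether its probe set reads the X-linked paralog Kdm6a was not tested. In these 6 lists 0 genes passed 2-fold with NFIL3.

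Some markers of other cell types differed along with these comparisons. With FSK/PMA, the oocyte gene Zp2 went from 890.6 to 405.6 and the leukocyte gene Cd14 from 605.6 to 1487. With NFIL3, the stromal gene Dcn went from 196.2 to 480.4. The summed signal of the leukocyte list was 2594, 3369 and 3722 on the Ad-GFP, FSK/PMA and Ad-NFIL3 arrays, that of theca and stroma 1449, 1293 and 1730, that of oocytes 966.9, 574.6 and 430.0, and that of endothelium 485.7, 562.5 and 632.5. Single genes weigh heavily in these sums. With FSK/PMA, Cd14 alone rose by more than the leukocyte sum and Zp2 alone fell by more than the oocyte sum. With NFIL3, Dcn made up most of the rise in the theca and stroma sum. The red cell list summed to 19929, 18360 and 15708, most of it from Hbb at 19435, 17999 and 15370. The granulosa list itself summed to 136488, 104516 and 70966. For the stimulus 7 of its 13 genes were at least 2-fold lower and 2 higher (53.8% and 15.4%, beside 11.4% and 7.43% of all genes). For NFIL3 4 were lower and 0 higher (30.8% and 0%, beside 0.958% and 1.34% of all genes). The part of these shifts in the differences above was not tested.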

How the data were processed

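Per the submitters' processing notes, the authors made the values with MAS5 (version not given in the sources used here). Deposited values are intensities, 1 signal per probe set on a linear scale, and each deposited column had a 2% trimmed mean of 500.2. MAS5 subtracts mismatch signals, which makes low values noisy. Per the series' design text, RNA of 3 experiments was pooled and 5 ug went into each array.

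Arrays were scaled to a 2% trimmed mean of 500, floored at 125.8 and converted to log2. Where an array was below the floor, a fold is a bound, written "at least". Of 31099 probe sets, 20832 had 1 gene symbol in the platform annotation, 436 several and 9831 none; 2 probe sets with several symbols, among them a member's, were left out. Symbols were updated through Entrez IDs (RefSeq, GRCr8; 20764 matched), which changed 0 member symbols. With 1 array per group no test was made, and precision is limited by the few arrays.

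The members, lists and naming rule were chosen with earlier results of these data known. Named were members past 2-fold, the 5 highest and 5 lowest for FSK/PMA and for NFIL3, the 5 brightest, a fixed set (class I deacetylases, Ep300, Crebbp, Ezh1, Ezh2, Kdm1a, Kdm6b, Smarca2, Smarca4, Smarca5, Smarcb1), and up to 4 genes per list; further members, such as Kdm3b or Hdac7, are given to complete a family and were chosen after their values were seen. Code was tested on simulated data. Promoter windows are RefSeq's, and Ezh1, Hdac11, Hdac6, Kat2a, Kat6a, Kmt2a, Kmt2d, Kmt2e, Setd5, Sirt6 and Smarcc2 had none. Alternatives were floors, scalings, probe set rules and a 1.5-fold threshold. Tools were Python 3.11.15, pandas 2.3.3, scipy 1.17.1 and, for normalisation, limma 3.58.1 in R 4.3.3.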

Additional observations from a re-analysis of the deposited data

How the results depend on the processing

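Named members kept their sign wherever they were past 2-fold, and 245 of 254 values in the FSK/PMA comparison and 250 of 258 in the NFIL3 comparison moved by less than the probe set spread over the 9 settings tried with the 2-fold threshold. Some settings could not move most of these values. Updating symbols changed 0 member symbols, and a lower floor or dropping probe sets by suffix left most values as they were. The counts therefore overstate how stable the values are. With FSK/PMA the count of members lower was 6, but 1 with a floor at the 75th percentile, 3 with median scaling, quantile or cyclic loess normalisation, and 14 at 1.5-fold; the count higher was 1, but 0 with the mean of all probe sets and 3 at 1.5-fold. With NFIL3 the count higher was 0, but 1 with no floor and a pseudocount of 16 (Kdm4d, which is below the floor) and 4 at 1.5-fold; the count lower was 0, but 1 with median scaling (Kat6b) and 1 at 1.5-fold. Against unstimulated Ad-GFP the lower count of 6 was 1 with the 75th percentile floor, 4 with quantile normalisation, cyclic loess or no floor (without Hdac4 and Smarcal1), 7 with median scaling (with Sirt3) and 12 at 1.5-fold, and the higher count of 0 was 6 at 1.5-fold. With the higher floor fewer genes were measured and folds of dim genes are compressed; for the scalings the cause was not tested. Over the settings at 2-fold, all genes counted 420 to 1315 higher and 402 to 1750 lower with FSK/PMA, and 36 to 902 higher and 48 to 552 lower with NFIL3. No paired analysis was possible because each group has 1 array.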

Other observations

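Uty, a Y-linked demethylase gene in the annotation, had signals of 3704, 8234 and 7459 on the Ad-GFP, FSK/PMA and Ad-NFIL3 arrays, although the labels give female rats. Its X-linked paralog Kdm6a was not among the genes analysed here.

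The alternative subunits of several remodellers had unlike differences with FSK/PMA. Smarca5 and Smarca1 differed by 1.28 and -1.38 on the log2 scale, Smarcc1 and Smarcc2 by 0.32 and -1.04, and Smarca4 and Smarca2 by 0.06 and -0.75. Smarcd1, Smarcd2 and Smarcd3 differed by -0.24, -0.07 and -2.24. These are values of the brightest probe sets. Dimmer ones gave smaller differences, 0.84 and 0.50 for Smarca5 and -0.43 for Smarcc2. These genes were set together after their values were seen, and each value comes from 1 array per group.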
